A study of Mus musculus with 4 samples.

Results

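The genes described here are 7 regulators of the nephric and genital ducts, *Wt1*, *Pax2*, *Pax8*, *Emx2*, *Lhx1*, *Gfra1* and *Gdnf*, chosen by name and found as 7 of the 25819 gene rows of an RNA-Seq table of the mouse urogenital sinus (UGS). The UGS is the endodermal tube and surrounding mesenchyme of the lower embryonic abdomen that gives rise to the prostate, the urethra and the bladder neck, and it receives the caudal ends of the Wolffian ducts. The series compared the whole UGS of wild type male embryos with that of Tbx18Gfp/Gfp male embryos, which carry a GFP knock-in null allele of *Tbx18* on both chromosomes and so lack this T-box transcription factor in every tissue from conception on. Both genotypes were collected at E16.5 and at E18.5, and the RNA of 3 embryos was pooled into 1 library for each genotype and stage. With 1 library in each of the 4 groups no replicate error could be computed and no difference was tested. The allele is not restricted to the UGS, and whole organs were taken, so the cells in which a transcript lay are not known from these values.

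Expression was given as FPKM, reads scaled to transcript length and to sequencing depth, which can be compared between genes because it is a level per length. From genes with a single read, the depth of 3 libraries was estimated at 52400000 to 64000000 mapped reads and that of the E18.5 wild type library at 29000000. This library stood apart in its FPKM sum too, 375826 against 460392 to 504136 in the others. At E18.5 the ratio of mutant to wild type was higher at higher GC content of the transcript (Spearman rho 0.44 for 11658 genes). At E16.5 rho was 0.02 for 12066 genes. Between the stages rho was -0.50 in wild type and -0.23 in the mutant. The genes behind each value are points of the same pair of libraries. A trend with GC content was thus not limited to pairs that hold the E18.5 wild type library. Comparisons of the duct regulators that use this library are therefore given with other scalings or set beside the values of the other 3 libraries, and for related gene lists the E18.5 counts are also given relative to the median gene. The median gene that reached 1 FPKM in both genotypes had a log2 ratio of mutant to wild type of 0.01 at E16.5 and of 0.29 at E18.5. *Tbx18* itself was measured at 3.47 (wild type) and 2.50 FPKM (mutant) at E16.5 and at 3.16 and 2.93 at E18.5, and these values do not tell transcript of the knock-in locus from that of an intact one. All 13 markers of UGS epithelium and mesenchyme examined reached 1 FPKM.

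The nephric duct, later called the Wolffian duct, forms from intermediate mesoderm, grows to the cloaca, sends out the ureteric bud and in males becomes the epididymis, vas deferens and seminal vesicle. LHX1, PAX2 and PAX8 are transcription factors needed to form this duct and the nephron precursors, EMX2 is a homeodomain factor needed for its epithelium to persist, and WT1 is a zinc finger factor of the kidney mesenchyme, podocytes, gonads and mesothelium. GDNF is a ligand secreted by mesenchyme that binds the co-receptor GFRA1 and signals through the receptor tyrosine kinase RET, a system that drives budding of the nephric duct and also the migration and survival of enteric and other autonomic neural crest cells.

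*Wt1*, on chromosome 2 from 104966686 to 105013771 in the deposited positions, was the most abundant of the 7 genes in every library. Its level was 15.2 FPKM in wild type and 20.5 FPKM in Tbx18Gfp/Gfp UGS at E16.5, and 22.8 FPKM in wild type and 16.3 FPKM in mutant UGS at E18.5. The mutant was thus the higher library at the earlier stage and the lower one at the later stage. Bulk values cannot tell fewer cells of a type from less RNA per cell, and this holds for every gene below.

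*Pax2* and *Pax8* encode related paired-domain factors that act in part redundantly in the nephric lineage. *Pax2* (chromosome 19, 44831884 to 44910517) was at 1.79 and 3.55 FPKM in wild type and mutant at E16.5, then 2.72 and 2.01 FPKM at E18.5. *Pax8* (chromosome 2, 24276080 to 24331086) was at 3.12 and 4.99 FPKM at E16.5, then 4.60 and 3.28 FPKM at E18.5. Both genes shared the order of libraries in which the E16.5 mutant was the highest, the E18.5 wild type the second, the E18.5 mutant the next and the E16.5 wild type the lowest. *Pax8* exceeded *Pax2* in each library, by 1.74, 1.41, 1.69 and 1.64 times in the order E16.5 wild type, E16.5 mutant, E18.5 wild type and E18.5 mutant.

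As deposited, the levels of *Pax2* and *Pax8* ran in the same order of libraries, and those of *Gdnf* did not. The 250 bases before a listed start site of each gene are shown to set the promoters side by side. They are reference sequence from RefSeq on GRCm38.p6, a build whose positions differ from those of the deposited table, and capitals mark a GC box (GGGCGG or its reverse complement CCGCCC) or a TATA box (TATAAA or its reverse complement TTTATA). The windows are chr19:44755502-44755751 on the plus strand for *Pax2*, chr2:24475600-24475849 on the minus strand for *Pax8* and chr15:7809798-7810047 on the plus strand for *Gdnf*.
Pax2: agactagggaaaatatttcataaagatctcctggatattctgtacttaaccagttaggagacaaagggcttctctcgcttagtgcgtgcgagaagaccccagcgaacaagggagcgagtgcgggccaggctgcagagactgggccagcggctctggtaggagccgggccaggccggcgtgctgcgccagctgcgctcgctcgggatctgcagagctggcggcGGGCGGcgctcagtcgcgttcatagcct
Pax8: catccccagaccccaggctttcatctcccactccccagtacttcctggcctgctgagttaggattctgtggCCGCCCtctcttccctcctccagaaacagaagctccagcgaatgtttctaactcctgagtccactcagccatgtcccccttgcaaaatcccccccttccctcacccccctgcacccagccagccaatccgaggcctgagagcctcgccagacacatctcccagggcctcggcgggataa
Gdnf: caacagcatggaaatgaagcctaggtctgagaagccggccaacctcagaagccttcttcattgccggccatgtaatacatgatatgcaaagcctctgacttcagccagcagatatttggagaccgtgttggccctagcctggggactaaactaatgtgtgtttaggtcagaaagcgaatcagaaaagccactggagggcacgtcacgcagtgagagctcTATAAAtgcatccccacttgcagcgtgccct
The *Pax2* window was 60.8% GC with 20 CpG dinucleotides, the *Pax8* window 60.4% GC with 6, and the *Gdnf* window 50.8% GC with 7, where the median of 32851 promoters was 52.4% GC with 6. A GC box occurred in 32.7% of these promoters and a TATA box in 12.4%. The *Pax2* and *Pax8* windows shown each held 1 GC box and no TATA box, and *Gdnf* held 1 TATA box and no GC box. RefSeq lists 3 start sites for *Pax2* and 2 for *Gdnf*, of which the one nearest the gene start in the GENCODE annotation is shown. The windows differ: the *Pax2* window farthest from that start had no GC box at 52.8% GC, and the other *Gdnf* window had no TATA box. The core bound by T-box factors in general (GGTGTGA or its reverse complement TCACACC) occurred in 3.33% of all promoters and in no window of the 6 members that matched an entry, which says only that these letters are not there. *Wt1* had no matching entry.

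*Emx2* (chromosome 19, 59533180 to 59539847) was at 5.99 FPKM in the wild type and 9.06 in the mutant library at E16.5, and at 11.2 and 6.89 FPKM at E18.5. Its highest library was the E18.5 wild type, as for *Wt1*, and its lowest the E16.5 wild type. The ratio of *Wt1* to *Emx2* within a library lay between 2.03 and 2.54.

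*Lhx1* (chromosome 11, 84332881 to 84339036) was below 1 FPKM in all 4 libraries. Wild type and mutant stood at 0.629 and 0.644 FPKM at E16.5, then at 0.353 and 0.489 FPKM at E18.5, from an estimated 10 to 40 reads a library. The 95% counting intervals of the 4 values, 0.453 to 0.863, 0.443 to 0.885, 0.167 to 0.642 and 0.313 to 0.713 FPKM in the same order, all overlapped, so no difference was detectable at this depth. The other 6 genes reached 1 FPKM and rested on an estimated 137 to 1531 reads a library.

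*Gdnf* (chromosome 15, 7761011 to 7787575) was at 2.38 and 3.04 FPKM in wild type and mutant at E16.5, then 1.86 and 2.47 FPKM at E18.5. The mutant was the higher library at both stages. *Gfra1* (chromosome 19, 58311182 to 58528956) was at 13.0 and 10.9 FPKM in wild type and mutant at E16.5, then 8.96 and 8.80 FPKM at E18.5. The co-receptor was therefore slightly lower in the mutant at E16.5 and near equal at E18.5. *Gfra1* exceeded its ligand by 5.47 and 4.82 times in the E16.5 and E18.5 wild type libraries, and by 3.60 and 3.57 times in the mutant libraries. A lower ratio in the mutant was thus present at each stage.

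In the order of levels *Gfra1* followed *Wt1* in 3 libraries, and in the E18.5 wild type library *Emx2* came second (95% counting interval 10.4 to 12.1 FPKM, above that of *Gfra1*). *Pax8* came next below these 3 genes in each library, and *Lhx1* was last. *Gdnf* and *Pax2* changed places: *Gdnf* was the higher in E16.5 wild type (2.38 against 1.79 FPKM, with intervals that did not overlap) and *Pax2* in E18.5 wild type (2.38 to 3.10 against 1.60 to 2.15 FPKM). In the mutant libraries their intervals overlapped or met, with 2.80 to 3.30 against 3.27 to 3.85 FPKM at E16.5 and 2.24 to 2.70 against 1.79 to 2.24 FPKM at E18.5. These intervals cover counting error only, not the spread between embryos. Their widths and the read numbers also rest on the median transcript length of a gene, which can be far from the true one. It was 1389 bases for *Gfra1*, with transcripts of 349 to 4641, and 1201 bases for *Lhx1*, with transcripts of 382 to 3846. The level of a gene differed between its lowest and highest library by between 1.48 times for *Gfra1* and 1.98 times for *Pax2*.

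**Figure D1:**
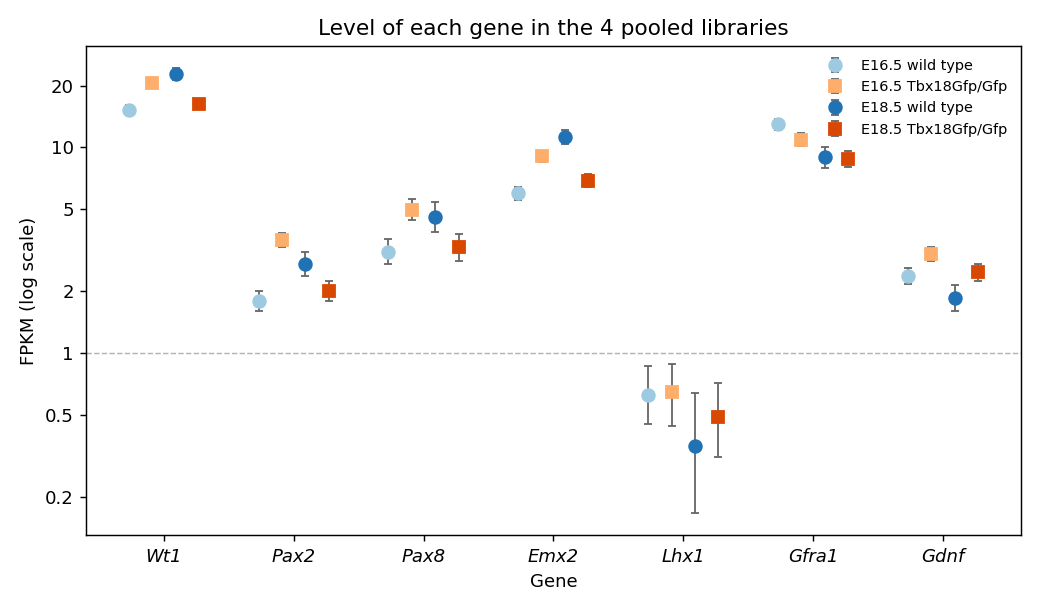
FPKM (log axis) of the 7 genes in the 4 libraries, with 1 point per pooled library and bars for 95% counting intervals; the dashed line is 1 FPKM. *Wt1*, *Pax2*, *Pax8* and *Emx2* were higher in the mutant at E16.5 and lower at E18.5, *Gdnf* was higher in the mutant at both stages, and *Lhx1* lay below the line throughout.

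The E16.5 comparison asks how the UGS without *Tbx18* differed before the prostate buds appear. *Pax2* was 1.98-fold higher in the mutant (log2 ratio 0.98, 95% counting interval 0.79 to 1.18). *Pax8* was 1.60-fold higher (0.68, 0.41 to 0.94) and *Emx2* 1.51-fold higher (0.60, 0.46 to 0.73). Smaller differences were seen for *Wt1*, 1.35-fold higher (0.43, 0.33 to 0.54), and *Gdnf*, 1.28-fold higher (0.35, 0.18 to 0.53). *Gfra1* was 1.19-fold lower (-0.25, -0.39 to -0.11). The interval of *Lhx1* included 0 (0.03, -0.69 to 0.70).

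Of the 6 genes that passed the minimum of 1 FPKM in 1 of the libraries compared, none reached a 2-fold difference at E16.5, where 0.481% of 14761 genes were past it in the higher and 1.17% in the lower direction. At 1.5-fold, 3 genes were higher in the mutant (*Pax2*, *Pax8* and *Emx2*), where 1.44% of all genes were, and 0 were lower, where 2.72% were. The count is sensitive to where the line falls, since *Emx2* stood just inside it and *Wt1* outside. The median log2 ratio of the 6 was 0.51, against 0.01 over all genes, and 5 of the 6 were higher in the mutant. With 1 library a group these counts describe the 2 libraries and are not a test of genotype.

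At E18.5, when prostate budding has begun, 4 of these genes lay on the other side. *Emx2* was 1.63-fold lower in the mutant (log2 ratio -0.70, 95% counting interval -0.85 to -0.55). *Pax8* and *Wt1* were each 1.40-fold lower (-0.49, -0.82 to -0.16, and -0.48, -0.61 to -0.36). *Pax2* was 1.36-fold lower (-0.44, -0.69 to -0.19). *Gdnf* was 1.33-fold higher (0.41, 0.16 to 0.66), as at E16.5 within the counting intervals, while the intervals of *Gfra1* (-0.03, -0.23 to 0.18) and *Lhx1* (0.47, -0.64 to 1.69) included 0.

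None of the 6 genes reached 2-fold at E18.5 either, where 15.1% of 14733 genes were past it in the higher and 2.89% in the lower direction. *Emx2* alone was past 1.5-fold in the lower direction, where 7.60% of all genes were, and no member was past it in the higher direction, where 33.2% were. The median log2 ratio of the 6 was -0.45, against 0.30 over all genes counted. Since genes as a whole were higher in the mutant at this stage, scaling moved the size of the differences. Relative to the median gene the log2 ratios were -0.77 for *Wt1*, -0.73 for *Pax2*, -0.78 for *Pax8*, -0.99 for *Emx2* and -0.31 for *Gfra1*, and *Gdnf* stood at 0.12.

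The 4 genes *Wt1*, *Pax2*, *Pax8* and *Emx2* were lower in the E18.5 mutant under each scaling tried. After subtraction of the trend with length and base composition of transcripts, their log2 ratios were -1.03, -1.21, -1.25 and -0.93, so that 3 of them passed 2-fold. Their transcripts were 54.2%, 60.2%, 57.1% and 49.2% GC, the *Pax2* transcript being richer in GC than 95.3% of genes. *Gdnf* was higher in the mutant under all scalings except equal library sums, which gave -0.02.

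**Figure D2:**
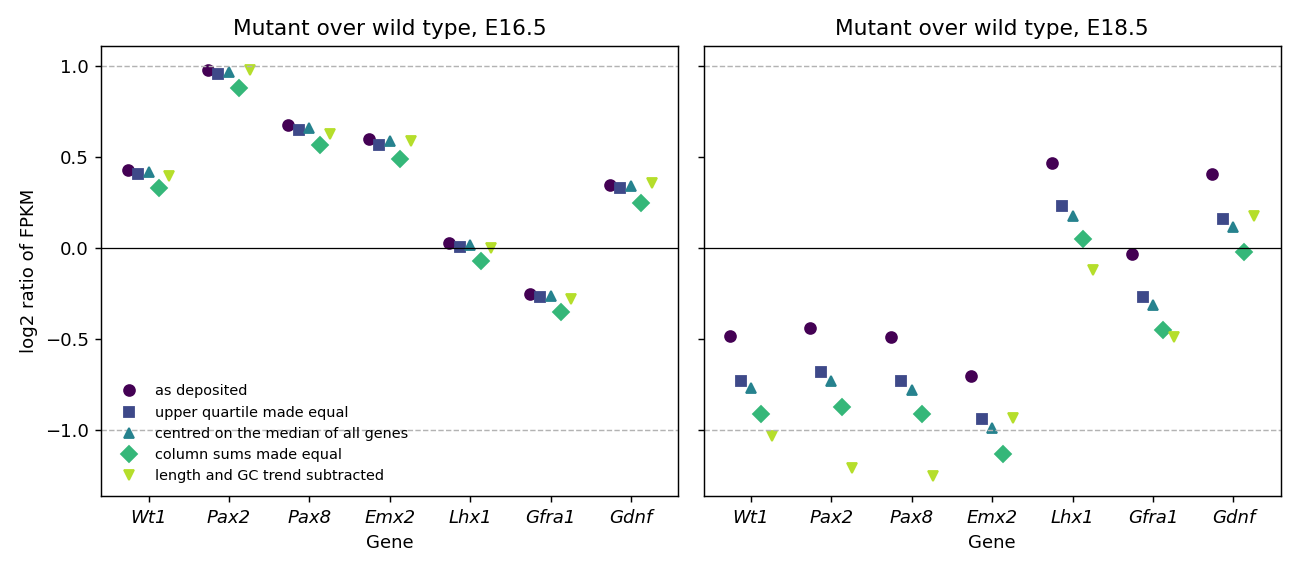
Log2 ratio of mutant to wild type for each gene under 5 scalings of the libraries, with 1 marker per scaling and dashed lines at a 2-fold difference. *Wt1*, *Pax2*, *Pax8* and *Emx2* kept their side of 0 at each stage, *Gdnf* fell to -0.02 at E18.5 with equal sums, and the scalings spread more widely at E18.5 than at E16.5.

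Setting both stages side by side, *Wt1*, *Pax2*, *Pax8* and *Emx2* were higher in the mutant at E16.5 and lower at E18.5, which was the order of 4 of the 6 genes and of 14.2% of the 14455 genes that passed the minimum at both stages. With E18.5 ratios taken from their median the share of all genes was 21.3%, and the same 4 members had this order. When a difference of at least 1.2-fold was asked for in both directions, the 4 members remained beside 1.31% of all genes, or 1.97% with the median taken off. This line was not planned and lay below each difference of the 4 members. Their smallest were 1.35-fold (*Wt1* at E16.5) and 1.36-fold (*Pax2* at E18.5), so the choice of line fixed that all 4 passed. At 1.5-fold in both directions *Emx2* alone would remain (1.51-fold and 1.63-fold). *Gdnf* was higher at both stages, as were 40.3% of all genes, and *Gfra1* lower at both by sign, as were 15.8%, though its interval at E18.5 included 0. No member was lower and then higher, as were 29.7% of all genes. With the median taken off, these shares of all genes were 28.7% higher at both, 27.2% lower at both and 22.8% lower then higher. The difference between the stages was not tested.

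**Figure D3:**
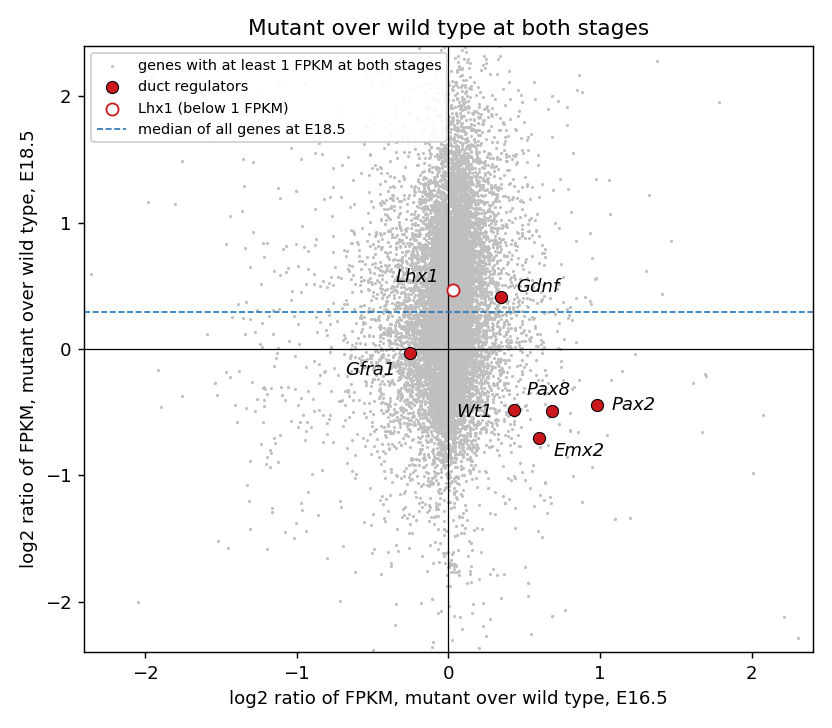
Log2 ratio of mutant to wild type at E16.5 (horizontal) and at E18.5 (vertical), with grey points for 14455 genes, of which 138 lie outside the axes, red points for the duct regulators and an open point for *Lhx1*, which was below 1 FPKM. *Wt1*, *Pax2*, *Pax8* and *Emx2* lie in the lower right, below the dashed median of all genes at E18.5 (0.29).

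The same 4 libraries can be read along time, and these ratios share their libraries with those above. In wild type UGS *Emx2* was 1.87-fold, *Pax2* 1.52-fold and *Pax8* 1.47-fold higher at E18.5 than at E16.5, and *Wt1* was higher by a log2 ratio of 0.58. *Gfra1* was 1.45-fold lower (log2 ratio -0.54), and *Gdnf* had a log2 ratio of -0.35. In mutant UGS the direction was the other one for the transcription factors: *Pax2* was 1.77-fold, *Pax8* 1.52-fold and *Emx2* 1.32-fold lower at E18.5, and *Wt1* had a log2 ratio of -0.33. As deposited, the ligand and co-receptor genes did not turn with genotype, with log2 ratios of -0.30 for *Gdnf* and -0.31 for *Gfra1* in the mutant. In wild type the median gene itself stood at -0.33. Relative to it *Gdnf* was at -0.02 and *Gfra1* at -0.21 in wild type, and with the length and GC trend subtracted both were at -0.05. Their fall in wild type thus depended on the scaling. Relative to the median gene *Wt1*, *Pax2*, *Pax8* and *Emx2* stood at 0.92, 0.93, 0.89 and 1.24 in wild type.

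In wild type 0 of the 6 genes passed 2-fold between the stages, where 2.70% of 14807 genes were past it in the higher and 16.8% in the lower direction. *Pax2* and *Emx2* passed 1.5-fold in the higher direction, where 6.80% of genes did, and none in the lower, where 35.9% did, with *Wt1* just short of 1.5-fold. In the mutant 0 of the 6 passed 2-fold, where 1.35% of 14713 genes were past it in the higher and 0.571% in the lower direction. There 0 passed 1.5-fold in the higher direction, where 3.00% did, and *Pax2* and *Pax8* passed it in the lower, where 1.68% did. The median log2 ratio of the 6 was 0.56 in wild type and -0.36 in the mutant, against -0.35 and -0.06 over all genes.

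Since the E18.5 wild type library stood apart, the remaining 3 libraries were compared without it. The E18.5 mutant lay close to the E16.5 wild type for *Wt1* (1.07 times its level), *Pax2* (1.12), *Pax8* (1.05), *Emx2* (1.15) and *Gdnf* (1.04), and below it for *Gfra1* (0.677). The E16.5 mutant exceeded the E18.5 mutant by 1.26 times for *Wt1*, 1.77 for *Pax2*, 1.52 for *Pax8*, 1.32 for *Emx2*, 1.24 for *Gfra1* and 1.23 for *Gdnf*. Of the 3, the E16.5 mutant was therefore the highest library for all members that reached 1 FPKM except *Gfra1*, which was highest in the E16.5 wild type. The ratio between the mutant libraries also ran with GC content (Spearman rho -0.23). With the length and GC trend subtracted, the E18.5 mutant over the E16.5 mutant was 0.847 for *Wt1*, 0.628 for *Pax2*, 0.709 for *Pax8* and 0.796 for *Emx2*. It was 0.845 for *Gfra1* and 0.859 for *Gdnf*. The lower value of the mutant at E18.5 is a difference from the E18.5 wild type library, and the part of that library in the result was not tested.

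Other genes of the nephric duct and of Ret signalling were read from lists chosen by name. Of 11 nephric duct genes, 9 were higher and 2 lower in the mutant at E16.5 (median log2 ratio 0.04), and 7 were higher and 4 lower at E18.5 (median 0.10). At 1.5-fold 2 were higher and 0 lower at E16.5, where 1.44% and 2.72% of all genes were. At E18.5 4 were higher and 2 lower, where 33.2% and 7.60% of all genes were. By sign, 40.3% of all genes were higher at both stages, 29.7% lower then higher, and 14.2% higher then lower. A majority higher at E18.5 was thus the common case, here and in the lists below. Relative to the median gene, 5 of the 11 were higher and 6 lower at E18.5, so the majority turned. The order of higher then lower was seen in 4 of the 11, among them *Gata3* and *Spry1*. *Gata3*, a zinc finger factor that acts downstream of PAX2 and PAX8 in the duct, had 34.3 and 34.8 FPKM in wild type and mutant at E16.5, then 40.6 and 27.0 FPKM at E18.5.

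*Cdh16*, the kidney and duct cadherin, did not follow this order. It had 16.6 and 29.8 FPKM at E16.5, then 10.4 and 18.7 FPKM at E18.5, higher in the mutant by log2 ratios of 0.84 and 0.85. *Spry1* and *Etv5*, an inhibitor and a transcriptional target of Ret signalling, differed little at E16.5 (12.3 and 12.5, and 12.1 and 12.4 FPKM). At E18.5 *Spry1* had 12.1 and 11.5 FPKM and *Etv5* 7.96 and 10.9 FPKM.

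*Ret*, the receptor that GFRA1 presents GDNF to, had 23.1 and 19.8 FPKM in wild type and mutant at E16.5, then 19.2 and 19.7 FPKM at E18.5. It thus lay near *Gfra1* in its differences, and exceeded *Gfra1* by 1.78 to 2.24 times within each library. Of 8 genes of the GDNF ligand and receptor family, 5 were higher and 3 lower in the mutant at E16.5. None was past 1.5-fold, where 1.44% of all genes were in the higher and 2.72% in the lower direction. At E18.5 5 of 7 were higher and 2 lower, with 3 past 1.5-fold higher and 1 lower (medians 0.07 and 0.22), beside the same 33.2% and 7.60% of all genes. Relative to the median gene 3 of the 7 were higher and 4 lower. *Gfra2*, the neurturin co-receptor, was lower in the mutant at both stages, with 18.8 and 14.7 FPKM at E16.5, then 19.8 and 13.0 FPKM at E18.5. *Gfra3*, the artemin co-receptor, had 10.8 and 12.0, then 5.15 and 9.53 FPKM. *Artn*, its ligand, had 4.58 and 5.19, then 4.07 and 4.77 FPKM, and *Ncam1*, an alternative GDNF receptor, had 38.2 and 37.0, then 46.6 and 34.6 FPKM.

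Genes of the kidney mesenchyme, where *Wt1*, *Pax2* and *Gdnf* are also active, lay on both sides of 0. Of 14, 6 were higher and 8 lower in the mutant at E16.5 (median log2 ratio -0.14). There 0 were past 1.5-fold higher and 2 lower, where 1.44% and 2.72% of all genes were. At E18.5 7 were higher and 7 lower (median -0.08), with 4 and 2 past 1.5-fold, where 33.2% and 7.60% of all genes were. Relative to the median gene 4 were higher and 10 lower at E18.5. *Eya1*, a co-activator upstream of *Gdnf* in the kidney, had 19.4 and 17.6 FPKM at E16.5, then 22.8 and 15.6 FPKM at E18.5. *Hoxa11*, which acts with it there, had 13.4 and 19.2 FPKM, and was 2.99-fold higher in the mutant at E18.5 over 5.53 FPKM in wild type. *Osr1*, an early factor of the intermediate mesoderm, had 36.5 and 29.4, then 33.7 and 29.3 FPKM. *Robo2*, a receptor that limits where *Gdnf* is expressed, had 15.2 and 15.6, then 18.9 and 11.4 FPKM.

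Genes of the Müllerian duct, which depends on the same transcription factors and regresses in males, were 8 of 10 at or above 1 FPKM in some library. Of these 4 were higher and 4 lower at E16.5, and 6 were higher and 2 lower at E18.5 (median 0.07 at both stages). Relative to the median gene the E18.5 split turned to 2 higher and 6 lower. *Amhr2*, the receptor for anti-Müllerian hormone, was at most 0.352 FPKM, and *Wnt7a*, made by the duct epithelium, at most 0.311 FPKM. *Wnt4*, needed for the duct to form, had 22.7 and 19.4 FPKM at E16.5, then 6.79 and 16.6 FPKM at E18.5. *Hoxa10*, *Wnt5a*, *Hoxa13* and *Rarb*, which the mesenchyme of the UGS also uses, differed between genotypes by at most 1.32-fold at either stage.

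**Figure D4:**
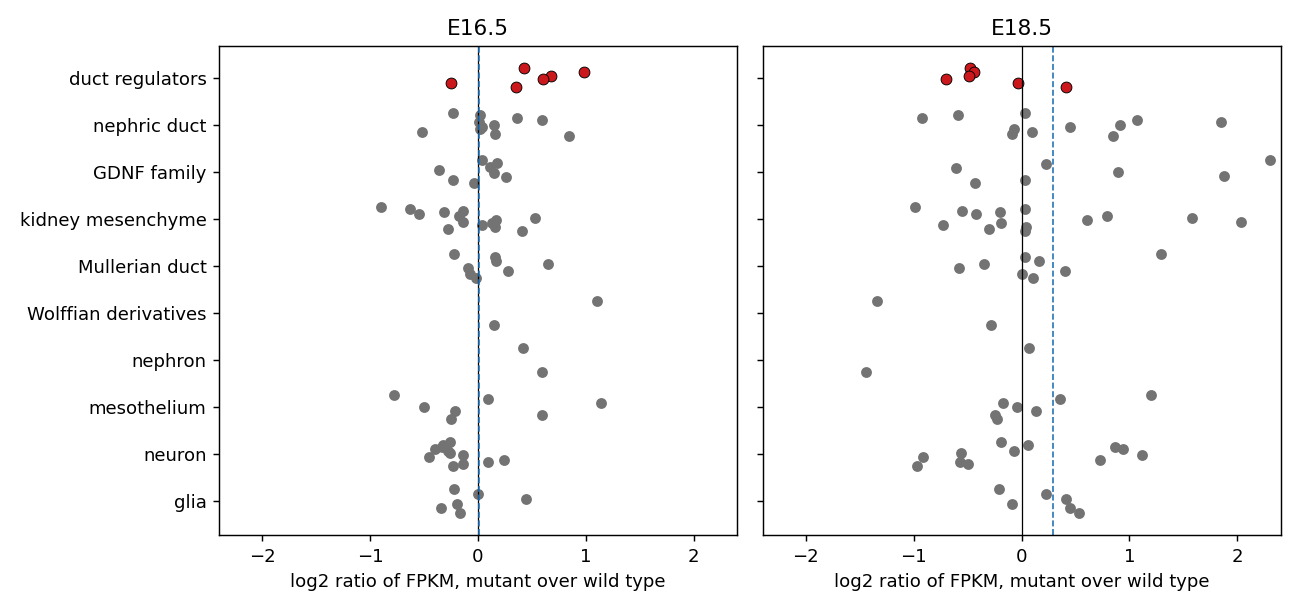
Log2 ratio of mutant to wild type at each stage for the duct regulators and for related gene lists, with 1 dot per gene that reached 1 FPKM in any library and a dashed line at the median of all genes; *Lhx1* is left out. The duct regulators sat mostly right of 0 at E16.5 and left of it at E18.5, as did the few Wolffian markers, whereas most other lists lay on both sides at each stage.

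Markers of tissues that border the UGS and express these genes were read in the same libraries. For the derivatives of the Wolffian duct (seminal vesicle, epididymis and vas deferens), 2 of 11 markers reached 1 FPKM, *Svs4*, *Svs5* and *Svs6* were listed at 0 in all libraries and *Svs2* had no row. The summed level was 3.13 and 4.74 FPKM in wild type and mutant at E16.5, then 6.71 and 3.61 FPKM at E18.5. *Crisp1*, a secreted epididymal protein, made up most of the sum in E18.5 wild type, but was below *Cftr* in E16.5 wild type. It had 1.03 FPKM in wild type and a 2.14-fold higher mutant level at E16.5, then 4.96 and 1.95 FPKM at E18.5. *Cftr*, the chloride channel of duct epithelium, had 1.86 and 2.07, then 1.62 and 1.34 FPKM. Both markers were thus higher in the mutant at E16.5 and lower at E18.5, as *Wt1*, *Pax2*, *Pax8* and *Emx2* were, beside 14.2% of all genes. *Cftr* differed by only 1.11-fold at E16.5. Unlike these regulators, it was lower at E18.5 than at E16.5 in wild type. The part of either marker in the result was not tested.

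For the nephron, 2 of 11 markers reached 1 FPKM, and the podocyte gene *Nphs1* was at most 0.0258 FPKM. *Umod* and *Slc12a1* of the loop of Henle were at most 0.00692 and 0.0172 FPKM. *Fxyd2*, a regulator of the sodium pump, had 1.31 and 1.98 FPKM at E16.5, then 4.19 and 1.55 FPKM at E18.5, and *Podxl*, which vessels and mesothelium also express, had 10.8 and 14.5, then 13.4 and 14.0 FPKM. The summed level of the nephron list was 12.6 and 17.1 FPKM at E16.5, then 18 and 16.3 FPKM at E18.5. For the gonad, 2 of 10 markers reached 1 FPKM. *Star* had 1.57 and 1.44, then 1.09 and 1.27 FPKM, and *Dhh* had 0.922 and 1.25, then 0.432 and 1.44 FPKM. *Cyp11a1* was at most 0.483 FPKM, and *Insl3* and *Cyp17a1* at most 0.0977 and 0.0352 FPKM. The sums of the gonad list were 3.41, 3.86, 1.96 and 3.83 FPKM.

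Mesothelium, a main site of *Wt1*, was present by 7 of 8 markers, 3 higher and 4 lower in the mutant at each stage, or 2 higher and 5 lower at E18.5 relative to the median gene. Their sum was 385 and 316 FPKM at E16.5, then 369 and 375 FPKM at E18.5, most of it from *Krt19*, *Upk1b* and *Aldh1a2*, which UGS epithelium or mesenchyme also express. *Krt19* had 178, 154, 134 and 147 FPKM, *Upk1b* 98.6, 69.6, 138 and 134 FPKM, and *Aldh1a2* 80.5, 67.7, 71.4 and 60.7 FPKM, in the order of libraries used above. *Upk3b*, more restricted to mesothelium and urothelium, had 12.2, 12.9, 17.3 and 22.2 FPKM, and *Msln* 12.3, 7.17, 2.99 and 6.88 FPKM. Neither was higher in the mutant at E16.5 and lower at E18.5, as *Wt1* was. Of the 7 markers 2 were, where 14.2% of all genes were.

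Neural crest derivatives, which use Gdnf, Gfra1 and Ret, were represented by 12 of 12 neuronal and 6 of 6 glial markers. The neuronal sum was 691 and 588 FPKM at E16.5, then 458 and 594 FPKM at E18.5, and the glial sum was 73.0 and 65.2, then 50.4 and 64.4 FPKM. At E16.5 10 of the 12 neuronal markers were lower in the mutant, as *Gfra1* and *Ret* were, but 0 were past 1.5-fold. By sign, 29.7% of all genes were lower at E16.5 and higher at E18.5, and 15.8% were lower at both. At E18.5 7 of the 12 were lower, or 8 relative to the median gene. All 5 smooth muscle markers were past 1.5-fold lower at E16.5, where 2.72% of all genes were. At E18.5 all 5 were past 1.5-fold higher, where 33.2% of all genes were. Their sums were 1044, 540, 1231 and 3434 FPKM, and relative to the median gene 4 of the 5 were past 1.5-fold higher at E18.5. The order of lower then higher is the reverse of that of *Wt1*, *Pax2*, *Pax8* and *Emx2*. Of the 13 UGS markers 5 were higher and 8 lower in the mutant at E16.5, and 6 were higher and 7 lower at E18.5, or 1 higher and 12 lower relative to the median gene. The part of any of these tissues in the results was not tested.

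Transcripts next to the members bear on how they were counted. *Emx2os*, an antisense RNA on the minus strand whose near edge lies 54 bases from *Emx2*, had 0.647 and 0.877 FPKM at E16.5, then 0.938 and 0.964 FPKM at E18.5. *AI314831*, named *Wt1os* in RefSeq, lies 18 bases from *Wt1* and had 0.860 and 1.12, then 1.08 and 0.956 FPKM. *1500016L03Rik*, named *Lhx1os* in RefSeq, lies 141 bases from *Lhx1* and had 0.238 and 0.684 FPKM, then was listed at 0 in wild type and at 0.484 FPKM in the mutant. In the deposited positions none of these 3 overlapped its member. *Gm10007* lay inside *Gfra1* and had at most 0.0154 FPKM. The kit kept strand, but whether the authors' estimate used it is not given in the sources used here, so reads of a gene and of an antisense partner that overlaps it in fact could not be told apart.

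The genes whose 4 values ran most like those of each member were found by the distance between profiles of log2(FPKM + 0.1), each less its own mean, over 14449 genes and the 4 libraries. With 4 points such likeness is a description of these libraries only. Nearest to *Wt1* were *Penk*, with 156, 203, 233 and 165 FPKM (distance 0.0401), and *Veph1*, with 0.822, 1.15, 1.23 and 0.889 FPKM (0.0447). Nearest to *Pax2* were *Blnk*, with 2.32, 4.03, 3.27 and 2.31 FPKM (0.135), and *Rxfp1*, with 1.42, 2.50, 1.75 and 1.41 FPKM (0.205), and *Pax8* came 4th (0.223).

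Nearest to *Pax8* were *Dpp4*, with 2.30, 3.78, 3.62 and 2.60 FPKM (0.0811), and *F2rl1*, with 3.37, 5.24, 5.20 and 3.85 FPKM (0.119). Among its nearest were also *Wt1* at rank 17, *Pax2* at rank 19 and *Emx2* at rank 72 of the 14449. Nearest to *Emx2* were *Rspo1*, a secreted amplifier of Wnt signalling, with 2.04, 3.55, 3.97 and 2.55 FPKM (0.139), and the chemokine *Cxcl13*, with 2.09, 2.78, 3.81 and 2.17 FPKM (0.153), while *Wt1* was at rank 14. *Gfra1* ran closest to *Mtus2* (1.47, 1.19, 1.02 and 0.976 FPKM) and *Stat5a* (7.69, 6.82, 5.27 and 5.16 FPKM). *Gdnf* ran closest to *Pcdh20* (1.31, 1.68, 1.01 and 1.35 FPKM) and *Creb3l4* (2.52, 3.16, 1.98 and 2.65 FPKM). Likeness among the transcription factors was uneven: *Pax2* was at rank 2268 from *Wt1* (0.435) and at rank 904 from *Emx2* (0.479). *Gdnf* and *Gfra1* were at rank 2755 or beyond from each of the 4.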

How the data were processed

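Whole UGS was dissected from male embryos, and RNA of 3 embryos per genotype and stage was pooled for a stranded mRNA library. Per the labels and the study's methods, the authors trimmed single-end reads with Trimmomatic 0.30, aligned them with Tophat 2.1.0 at default options and deposited FPKM from Cufflinks 2.2.1, 1 column per library. The genome build is not given in the sources used here. Positions come from that table, its starts shifted to count from 1.

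Ratios of FPKM were computed where either of both libraries reached 1 FPKM, and medians on log2(FPKM + 0.1). Calls were made at 2-fold and, added after values were seen, at 1.5-fold. The 1.2-fold line for both stages was not planned either. Depth was estimated from single-read olfactory receptor genes of 850 to 1100 bases, and reads of a member from FPKM, depth and transcript length, which gave the 95% exact counting intervals. With 1 library per group no test was possible. Length and GC content were found for 83.9% of genes with at least 1 FPKM. The members and lists were chosen with earlier results of these data known. Named from each list are up to 5 genes with the highest FPKM, and for each member the 2 genes of nearest profile. Some genes of the lists are not reported here by name. Alternatives were equal column sums, centring on the median, upper quartile scaling (75th percentile), a lowess trend on length and GC content (span 0.3), a minimum of 5 FPKM, no minimum, pseudocounts of 0.01 and 1, and repeated symbols left out. E18.5 counts of the lists relative to the median gene were added after values were seen. The depth estimate, the ratios under each setting and the counting interval of a ratio were first run on simulated data with known answers. The other steps were not. Python 3.11.15, numpy 2.4.6, pandas 2.3.3, scipy 1.17.1 and statsmodels 0.14.6 were used.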

Additional observations from a re-analysis of the deposited data

Results flagged for a closer look

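For 4 genes the difference between mutant and wild type took opposite directions at the 2 stages, higher at E16.5 and lower at E18.5. The log2 ratio at E18.5 less that at E16.5 was -0.92 for *Wt1*, -1.43 for *Pax2*, -1.16 for *Pax8* and -1.30 for *Emx2*. Each direction rests on 1 library of either genotype, and the difference between the stages was not tested. Against the median gene of each stage the 4 genes kept these directions. No other member had opposite directions.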

How the results depend on the processing

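Of 228 recomputed values for the members that reached 1 FPKM, 185 stayed within the counting interval of the reported one, and 1 changed sign (*Gdnf* at E18.5, -0.02 with equal column sums). Of 160 recomputed counts and medians 133 stayed close and 27 moved. Part of these values could not move. A change of the minimum or leaving out repeated symbols keeps the ratio of a member as it was, and fold counts do not use the pseudocount. The shares that stayed are therefore no measure of robustness. In comparisons with the E18.5 wild type library, most member ratios moved under equal sums, centring, upper quartile scaling or the trend. At E16.5 the count of members past 1.5-fold higher was 1 with equal sums or a 5 FPKM minimum. At E18.5 the count past 2-fold was 1 with equal sums and 3 with the length and GC trend, and the count past 1.5-fold lower was 4 with equal sums, centring, upper quartile scaling or the trend. The E18.5 median was -0.85 with equal sums and -0.98 with the trend. In wild type between stages the 2-fold count was 1 with equal sums, centring or upper quartile scaling and 4 with the trend. The 1.5-fold higher count there was 4 with these 4 scalings and 1 with a 5 FPKM minimum, and the 1.5-fold lower count was 1 with no minimum, from *Lhx1*. The wild type median was 0.85 with equal sums, 0.89 with centring and 1.18 with the trend. In the mutant between stages the 1.5-fold lower count was 1 with centring, upper quartile scaling or the trend and 0 with a 5 FPKM minimum. The cause of these moves was not tested. No paired analysis was possible because each group has 1 library, and for the same reason no replicate could be left out. Depth limited *Lhx1* most, with 10 to 40 estimated reads a library.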
